A study of Mus musculus with 6 samples.

Results

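The nuclear genes of the mitochondrial respiratory chain and of ATP synthase were followed in mouse sympathetic neurons cultured in the presence or absence of interferon-gamma. This cytokine is released by T cells and natural killer cells. Members were the genes whose symbol in the platform annotation starts with Nduf, Uqcr, Cox4 to Cox8 or Atp5, together with Sdha to Sdhd, with pseudogenes left out. The rule found 90 of the 19087 genes on the array, and no measured value entered it. Of these, 66 were measured by 1 array feature and 24 by 2 to 4 features. Each of 3 arrays held neurons given 500 U per ml of interferon-gamma for 24 h, and each of 3 further arrays held untreated control neurons kept for 24 h. On every array the neuron RNA, in Cy5, was set against Cy3-labelled RNA from whole sympathetic cervical ganglia, untreated and taken at postnatal day 5. The labels name no strain, genotype or sex and no cells other than sympathetic neurons in the cultures, and they do not say whether the replicates were separate cultures or animals. The spread behind the p-values may therefore be technical. Over all genes, interferon-gamma arrays 1 and 3 correlated at 0.78 with each other but at 0.61 and 0.68 with array 2, which correlated at 0.72 with control array 2. Medians of the gene classes are given with all arrays and without interferon-gamma array 1. The members were lowest on that array, so leaving it out tends to raise their differences. Class medians without array 3, on which the members were highest, are not given.

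The respiratory chain passes electrons from NADH (complex I) and succinate (complex II) through complex III to oxygen at complex IV, cytochrome c oxidase. The protons moved on the way drive ATP synthase, whose F1 part makes ATP while its membrane part, Fo, turns. Cytochrome c carries electrons between complexes III and IV and, once released from mitochondria, also starts the caspase cascade of apoptosis, the step that the study's title names. Neurons draw most of their ATP from this route. The 90 genes encode 6 core subunits, 29 accessory subunits and 7 assembly factors of complex I, 4 subunits of complex II and 8 of complex III. For complex IV there were 12 genes of widely expressed subunits, including Ndufa4, now counted with this complex, and Cox7a2l, which helps complexes join into supercomplexes. A further 7 were isoforms known from muscle, lung or testis. ATP synthase contributed 5 genes of F1 and 12 of Fo and the stalks. Ndufa4l2, the paralogue of Ndufa4, was not analysed here.

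Promoters are shown for the genes at the extremes of the values below, chosen after those values were seen. Cox6a1 and Uqcrh had the highest ratios over the ganglion in control neurons, and Ndufaf7 and Ndufaf3 had the lowest unadjusted p between the groups. Each sequence is the 250 bases before the RefSeq start of the gene in GRCm38.p6, read 5′ to 3′ on the gene's strand. They lie at chr5:115348959-115349208 (minus strand), chr4:116075071-116075320 (minus strand), chr9:108567437-108567686 (minus strand) and chr17:78936885-78937134 (plus strand). Capitals mark matches, on either strand, to a core of the site of the transcription factor NRF1 (GCGC, any base, T, then GCGC), to CCGGAAGT, a core of ETS family sites such as those of GABPA, or to AANATGGC, a core of YY1 sites. All 3 factors are known regulators of nuclear genes for mitochondrial proteins.
Cox6a1: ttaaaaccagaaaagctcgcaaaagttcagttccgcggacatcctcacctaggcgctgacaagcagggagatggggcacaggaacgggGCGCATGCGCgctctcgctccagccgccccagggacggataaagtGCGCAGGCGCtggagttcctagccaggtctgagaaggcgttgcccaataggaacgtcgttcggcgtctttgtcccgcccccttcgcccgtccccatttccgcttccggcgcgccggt
Uqcrh: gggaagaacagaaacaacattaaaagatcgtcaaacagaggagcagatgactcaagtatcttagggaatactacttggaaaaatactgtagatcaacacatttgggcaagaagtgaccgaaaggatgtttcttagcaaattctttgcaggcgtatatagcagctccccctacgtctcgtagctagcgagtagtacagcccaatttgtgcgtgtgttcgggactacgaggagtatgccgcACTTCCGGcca
Ndufaf3: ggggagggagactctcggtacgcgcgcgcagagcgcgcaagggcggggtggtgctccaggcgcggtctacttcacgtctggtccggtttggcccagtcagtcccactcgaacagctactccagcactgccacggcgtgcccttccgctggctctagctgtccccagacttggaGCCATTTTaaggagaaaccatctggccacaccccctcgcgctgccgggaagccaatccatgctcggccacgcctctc
Ndufaf7: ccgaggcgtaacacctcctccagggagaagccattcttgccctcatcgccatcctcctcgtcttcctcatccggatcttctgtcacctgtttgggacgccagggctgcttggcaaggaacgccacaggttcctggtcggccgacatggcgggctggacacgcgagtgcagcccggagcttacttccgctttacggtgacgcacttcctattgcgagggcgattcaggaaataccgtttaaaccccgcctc
The Cox6a1 window held the NRF1 core at 2 places, of which the first reads the same on both strands. Uqcrh held an ETS core and Ndufaf3 a YY1 core, each on the opposite strand, and Ndufaf7 held none of the 3. Promoters of 75 of the 90 genes were matched in the RefSeq table by gene number, and each was searched on both strands over 300 bases, from 250 before to 50 after the first listed start. The NRF1 core was found in 18 of them (24%), against 7.35% of the promoters of all genes on the array and 4.78% of all promoters in the table. A YY1 core was found in 16 (21.3%), against 7.17% and 6.23%, and an ETS core in 5 (6.67%), against 5.79% and 4%. A core of interferon-stimulated response elements, GAAA and GAAA parted by any 2 bases, was in 2 of the 75 promoters (2.67%), against 3.32% of the promoters of genes on the array and 3.49% of all promoters. The cores differ in their letters, and a place can match more than 1 of them. The median G and C content of the 75 promoters, 58.3%, was close to the 57.7% of genes on the array. These matches describe letters in a window and are no evidence of binding.

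The first comparison asked whether 24 h of interferon-gamma changed RNA of the respiratory chain and ATP synthase. No member passed the test in either direction (limma, Benjamini-Hochberg adjusted p under 0.05 over all 19087 genes), where 1.14% of all genes did, with 1.12% higher and 0.021% lower. With no adjustment (limma, p under 0.05), 2 members were higher and 0 lower, against a background of 5.27% and 2.68% of all genes. All values are log2 ratios of neuron over ganglion RNA, and differences are interferon-gamma minus control. The median difference over the 90 genes was -0.033, against 0.0062 over all genes, and 80% of the members lay between -0.22 and 0.13, against -0.31 and 0.37 for all genes. The difference was above 0 in 37 members (41.1%), against 51.2% of all genes, and below 0 in 53. The 95% interval stayed within 2-fold either way for 88 of the 90 genes, against 80.8% of all genes, and within 1.5-fold for 77 of them, against 50.3%. The exceptions to 2-fold were Cox8b and Cox8c, a muscle and a testis isoform.

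On the same arrays all 9 measured genes of a list of 10 known targets of the cytokine rose (limma), with a median difference of 3.82 and a range from 2.29 for Irf1 to 7.14 for Gbp3. Tap1, the peptide transporter of antigen presentation, had ratios of 3.75, 3.48 and 3.48 on the interferon-gamma arrays, against -0.094, -0.19 and -0.47 on the control arrays. Irf1, an early target of the pathway, was at 1.87, 1.395 and 1.83, against -0.44, -0.66 and -0.67. Neither gene's groups overlapped, and the differences were 3.82 ± 0.15 and 2.29 ± 0.17 (SE, n = 3 per group; limma, adjusted p = 0.000189 and 0.00153).

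**Figure D1:**
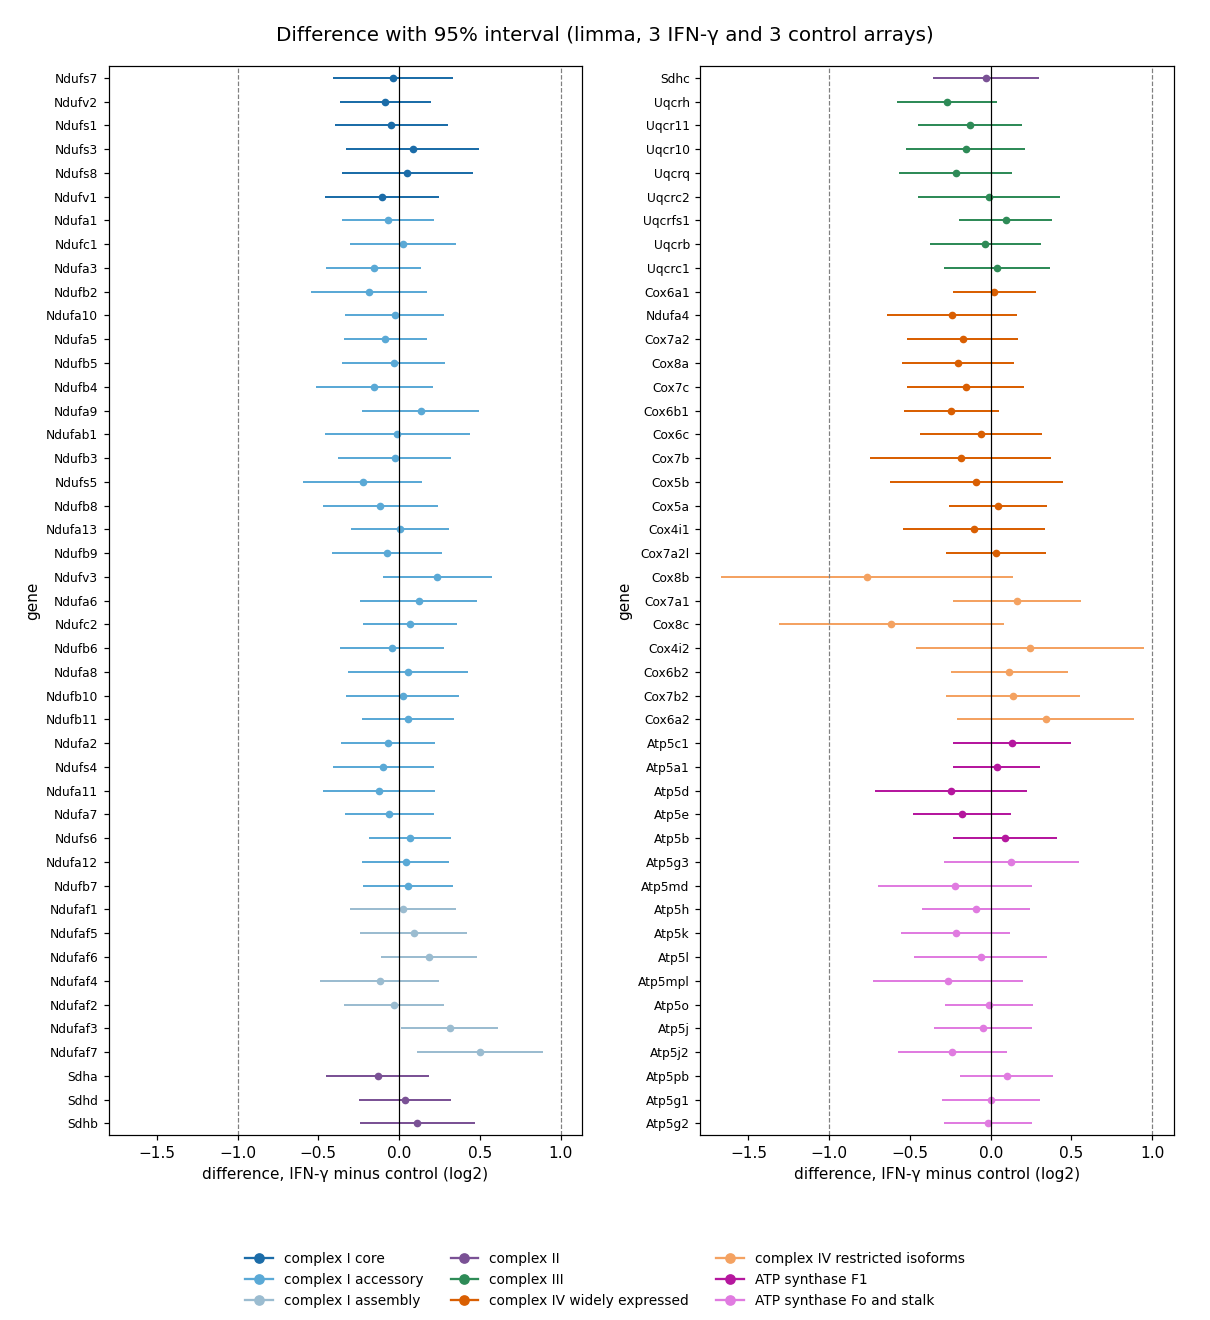
Difference of each of the 90 genes between 3 interferon-gamma and 3 control arrays (log2, dots) with its 95% interval from limma (lines), coloured by class of gene, with dashed lines at 2-fold. The dots lie between -0.77 for Cox8b and 0.50 for Ndufaf7, the intervals of Cox8b and Cox8c reach past 2-fold, and no gene passed the adjusted threshold.

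The core of complex I holds the flavin and iron-sulphur clusters that pass electrons to ubiquinone. Its 6 measured genes differed by between -0.11 and 0.083. Ndufs1, the largest subunit, had ratios of 0.17, 0.071 and 0.14 on the interferon-gamma arrays, against -0.009, 0.42 and 0.12 on the control arrays. Ndufv1, which binds NADH, had the lowest difference of the class, with -0.38, -0.21 and -0.010, against 0.058, -0.17 and -0.17. Ndufs3 had the highest, with 0.12, 0.17 and 0.39, against 0.42, 0.095 and -0.091. Groups overlapped in all 3 genes. The class median was -0.043 with 2 of 6 genes above 0, and without interferon-gamma array 1 it was 0.013 with 3 of 6. Ndufs7 and Ndufs8, which carry iron-sulphur clusters next to ubiquinone, differed by -0.038 ± 0.15 and 0.051 ± 0.17 (SE), and Ndufv2, the partner of Ndufv1, by -0.085 ± 0.11.

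Accessory subunits surround this core and are needed for its assembly and stability. The 29 genes had a median difference of -0.028, with 12 above 0 and 17 below. Without interferon-gamma array 1, on which the members were lowest, the median was 0.019, with 17 above 0 and 12 below. Leaving out array 3, on which they were highest, was not done by class. Over all 90 genes it moved the median the other way, to -0.069. The highest was Ndufv3, at 0.65, 0.26 and 0.40 on the interferon-gamma arrays, against 0.18, 0.26 and 0.16 on the control arrays, which overlapped at the lowest treated value. Its 3 features differed by 0.13 to 0.35. The lowest was Ndufs5, at 0.069, -0.086 and -0.0035, against 0.19, 0.001 and 0.46. Ndufa13, also known as GRIM-19 and first found as a gene of the cell death response to interferon and retinoic acid, was at 0.079, 0.21 and 0.34, against 0.23, 0.11 and 0.27. Its difference was 0.0053 ± 0.12 (SE), with a 95% interval from 0.818-fold to 1.23-fold. Ndufs6 was higher on all 3 treated arrays without overlap, at 0.046, 0.053 and 0.086 against 0.034, -0.055 and 0.0093, and by only 0.065 ± 0.10 (SE).

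Assembly factors build complex I and are not part of the finished enzyme. The largest positive difference of all 90 genes belonged to Ndufaf7, a methyltransferase needed for assembly of the complex. Its ratios were 0.12, -0.33 and -0.19 on the interferon-gamma arrays, against -0.67, -0.47 and -0.77 on the control arrays. Every treated value lay above every control value. The difference was 0.50 ± 0.16 (SE, n = 3 per group), or 1.09-fold to 1.85-fold at 95%, with an unadjusted p of 0.0179 and an adjusted p of 0.441 (limma). Ndufaf3, an early assembly factor, was at 0.29, 0.16 and 0.29, against -0.20, 0.066 and -0.066, again without overlap. It differed by 0.31 ± 0.12 (limma, unadjusted p = 0.0412, adjusted p = 0.595). Values of Ndufaf4, the lowest of the class, were -0.34, 0.11 and -0.0017, against 0.13, -0.019 and 0.026, and overlapped. The class median was 0.09, with 5 of 7 genes above 0, and without interferon-gamma array 1 it was 0.17 with 7 of 7 above 0. With that array left out, 50 of all 90 members and 9574 of all 19087 genes were above 0. The members were lowest on it, so this tally tends to rise by the choice of array. Ndufaf7 and Ndufaf3 were each measured by 1 feature.

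Complex II, succinate dehydrogenase, also works in the citric acid cycle. Its catalytic subunit Sdha had ratios of 0.0033, 0.28 and 0.003 on the interferon-gamma arrays, against 0.13, 0.30 and 0.26 on the control arrays. The 3 features of Sdha had control means from -0.35 to 0.98, so its level over the ganglion depends on the feature. Sdhb, the iron-sulphur subunit, was at -0.31, -0.11 and 0.15, against -0.23, -0.17 and -0.21. Sdhc and Sdhd, the membrane anchors, differed by -0.029 ± 0.13 and 0.035 ± 0.12 (SE). Groups overlapped in all 4 genes, whose median difference was 0.003 with all arrays and 0.027 without interferon-gamma array 1.

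Among the 8 genes of complex III, 2 had differences above 0 and 6 below, with a median of -0.081. Without interferon-gamma array 1 the median was 0.013, with 4 above 0 and 4 below, so this tally also turns on that array. Uqcrh, the hinge protein that binds cytochrome c1, had 0.30, 0.60 and 0.53 on the interferon-gamma arrays, against 0.68, 0.77 and 0.80 on the control arrays. Its groups did not overlap, and the difference was -0.27 ± 0.13 (SE; limma, adjusted p = 0.66). Leaving out interferon-gamma array 1, Uqcrh differed by -0.18. Uqcrfs1, the Rieske iron-sulphur protein, lay at 0.19, 0.20 and 0.42, against 0.16, 0.18 and 0.20, and overlapped. The scaffold proteins Uqcrc1 and Uqcrc2 differed by 0.039 ± 0.13 and -0.011 ± 0.18 (SE).

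For complex IV, the 12 widely expressed genes had the most negative median of the classes, -0.13, with 3 above 0 and 9 below. Cox6b1, which faces cytochrome c, had ratios of 0.11, 0.33 and 0.35 on the interferon-gamma arrays, against 0.56, 0.48 and 0.47 on the control arrays. These groups did not overlap, and the difference was -0.24 ± 0.12 (SE; limma, adjusted p = 0.674). Without interferon-gamma array 1 Cox6b1 differed by -0.17. Cox5b, which binds zinc, was at -0.20, 0.44 and 0.41, against 0.51, 0.36 and 0.050, and Cox5a at 0.19, 0.31 and 0.47, against 0.30, 0.20 and 0.33. Both overlapped. In 8 of the 12 genes interferon-gamma array 1 gave the lowest value of all 6 arrays. Without that array the class median was -0.061, with 5 above 0 and 7 below.

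None of the 17 ATP synthase genes was called. The F1 subunits Atp5a1 (alpha) and Atp5b (beta), which form the catalytic ring, differed by 0.036 ± 0.11 and 0.088 ± 0.13 (SE), and Atp5c1 (gamma), the rotating shaft, by 0.13 ± 0.15. The 3 features of Atp5b had control means from -0.61 to 0.76. Atp5d, the delta subunit of the shaft, had -0.52, -0.019 and 0.010 on the interferon-gamma arrays, against 0.30, 0.010 and -0.10 on the control arrays. Its difference was -0.24 with all arrays and -0.074 without interferon-gamma array 1. The F1 class median was 0.036 and, without that array, -0.0088. Atp5e, the epsilon subunit, was at -0.38, -0.081 and -0.15, against -0.017, -0.073 and 0.007. Its treated values all lay below the control values, by a mean of 0.18 with an SE of 0.12. In the 12 genes of Fo and the stalks, 3 were above 0 and 9 below, with a median of -0.055. Without interferon-gamma array 1 they had a median of -0.041, with 5 above 0 and 7 below. Atp5mpl, a small membrane subunit, had the lowest difference, with -0.19, 0.46 and 0.36, against 0.53, 0.49 and 0.41. That difference was -0.27 with all arrays and -0.067 without interferon-gamma array 1. Atp5k, the e subunit of the dimer interface, was at 0.040, 0.39 and 0.37, against 0.56, 0.45 and 0.43, without overlap.

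In all, the 3 treated arrays lay wholly above the 3 control arrays for 3 members, Ndufaf7, Ndufaf3 and Ndufs6, against 8.08% of all genes. They lay wholly below for 5 members, Uqcrh, Cox8b, Cox6b1, Atp5k and Atp5e, against 5.58% of all genes. The members' shares were 3.33% and 5.56%, at or under the background.

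Interferon-gamma array 1 stood apart for these genes. The median over the 90 genes was 0.071, 0.18 and 0.26 on interferon-gamma arrays 1, 2 and 3, against 0.173, 0.174 and 0.175 on the control arrays. The array medians averaged 0.17 ± 0.095 in the treated and 0.17 ± 0.0012 in the control group (SD, n = 3 each). The lowest of the 6 arrays was interferon-gamma array 1 for 41 members (45.6%), against 18.8% of all genes, array 2 for 8 (against 18.3%) and array 3 for 7 (against 12.7%). It was control array 1, 2 or 3 for 13, 10 and 11 members, against 19.6%, 13.4% and 17.2% of all genes. The highest was interferon-gamma array 3 for 31 members (34.4%), against 16% of all genes, array 1 for 8 (against 20.9%) and array 2 for 7 (against 13.6%). Control arrays 1, 2 and 3 were highest for 14, 16 and 14 members, against 18.9%, 13.9% and 16.7%. The members thus gathered at the low end on interferon-gamma array 1 and at the high end on array 3. For 71 of the 90 genes array 1 lay below the mean of the other treated arrays, by a median of 0.15. Over all genes the median gap was 0.02, with array 1 the higher. Complex III had medians of -0.071, 0.24 and 0.25 on the treated arrays, against 0.33, 0.21 and 0.24 on the control arrays. The widely expressed genes of complex IV had 0.16, 0.49 and 0.38, against 0.44, 0.54 and 0.54. ATP synthase F1 did not share this order, with 0.14, -0.019 and 0.010, against 0.064, 0.010 and 0.007. Cytosolic ribosomal proteins, a list of 77 genes taken by symbol, were at -0.096, -0.16 and -0.037, against -0.16, -0.14 and -0.060. Without interferon-gamma array 1 the median difference of the members was 0.020, with 50 above 0 and 40 below, and again no member passed. Without interferon-gamma array 3 the members' median difference was -0.069, and no member passed there either.

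Cell type markers also differed among the treated arrays. The median of 10 noradrenergic neuron markers was -0.0053, 0.13 and -0.089 on interferon-gamma arrays 1, 2 and 3, against 0.12, 0.33 and -0.20 on the control arrays. For 7 fibroblast markers it was 0.53, -1.41 and -0.059, against -0.0095, -1.01 and -0.13. Of 6 listed genes of dividing cells, 5 were measured, with medians of -0.23, -2.08 and -0.20, against -1.76, -2.24 and -1.77. For 8 of 10 glial markers they were -0.20, -1.14 and -0.17, against -0.27, -0.87 and -0.42. No neuron, glial, fibroblast, endothelial or dividing cell marker was called. Of 6 measured macrophage markers, C1qa, a complement component, rose by 1.64 ± 0.23 (SE; limma, adjusted p = 0.0288), and the list's medians were 0.57, 0.025 and 0.45, against -0.34, -0.36 and -0.12. The extremes of the lists were Prph (0.27) and Dbh (-0.27) for neurons, Fabp7 (0.64) and S100b (-1.07) for glia, and Lum (0.98) and Col1a1 (-0.81) for fibroblasts. They were Tek (0.25) and Emcn (-1.11) for endothelium, C1qa and Itgam (-0.42) for macrophages, and Aurkb (1.59) and Cdk1 (0.81) for dividing cells. By list medians, interferon-gamma array 1 was highest in fibroblast markers and lowest in the respiratory genes. Array 3 had medians close to it in dividing cell and glial markers, and the highest median of the respiratory genes. Single genes did not all share this order. Col1a2, Dcn, Lum and Pdgfra were highest on interferon-gamma array 1, but Col1a1, Col3a1 and Postn on control array 3. Interferon-gamma array 1 was the lowest array for 41 respiratory genes (45.6%), and the ATP synthase F1 median was highest there. The part of other cells in these values was not tested. In bulk RNA, fewer cells of a type and less RNA per cell cannot be told apart.

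**Figure D2:**
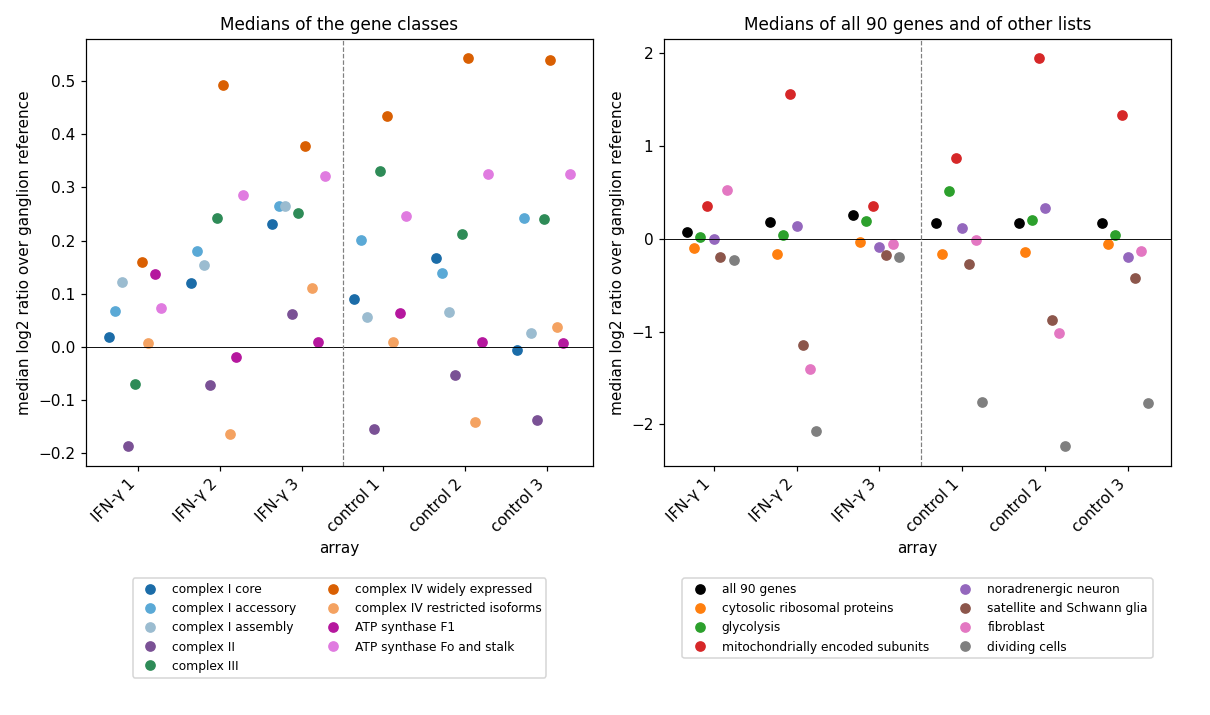
Median log2 ratio over the ganglion reference on each array, for the classes of respiratory genes (left) and for all 90 genes beside other lists (right), with interferon-gamma arrays left of control arrays. The 3 control medians of all 90 genes lie at 0.173 to 0.175, and the treated ones at 0.071, 0.18 and 0.26.

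The level of these genes in the cultured neurons was then set against the whole ganglion. A ratio above 0 means a larger share in the neuron RNA than in the ganglion RNA. These values are descriptions with no test, because the spread of the ganglion RNA is unknown and it was always in the same dye. The median ratio of the 90 genes was 0.18 in interferon-gamma neurons and 0.19 in control neurons, against medians over all genes of -0.018 and -0.031. All 3 interferon-gamma arrays were above 0 for 47 members, against 28.8% of all genes, and below 0 for 8, against 31.6%. On the control arrays, 54 members (60%) were above 0 on all 3, against 27.5% of all genes, and 10 were below 0 on all 3, against 32.6%. On all 6 arrays 40 members were above 0 (44.4%), against 18.5% of all genes, and 4 below (4.44%), against 21.8%. Markers of other cells were compared in the same way. In control neurons the median ratio was -0.45 for glial, -0.72 for endothelial and -1.82 for dividing cell markers, against 0.14 for the noradrenergic markers. Single glial markers lay on both sides of 0, from -1.81 for Fabp7 to 0.86 for Cdh19. So did noradrenergic markers, from -0.57 for Phox2a to 0.66 for Uchl1. A different makeup of cells and a different level per cell cannot be told apart here.

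Median ratios over the ganglion differed between the classes. The widely expressed genes of complex IV had a median ratio of 0.33 in interferon-gamma and 0.50 in control neurons, and 10 of 12 were above 0 on all 3 control arrays. Fo and the stalks were at 0.21 and 0.35, with 7 of 12 above 0 on all 3 control arrays, complex III at 0.18 and 0.23 with 6 of 8, and the accessory subunits of complex I at 0.20 in both groups with 22 of 29. The core of complex I was at 0.12 and 0.16 with 1 of 6, ATP synthase F1 at 0.0011 and 0.069 with 2 of 5, and complex II at -0.041 and -0.11 with 1 of 4. The assembly factors were at 0.24 in interferon-gamma and 0.044 in control neurons. Mean ratios in control neurons exceeded 0.5 for 12 of the 90 genes, against 8.49% of all genes, and lay under -0.5 for 2, against 13.3%. Neighbouring classes overlapped in their genes' values. Features of a single gene lay up to 1.37 apart in control mean, for Atp5b of F1, and 1.33 apart for Sdha of complex II. Both gaps are wider than the span of the class medians. Dyes were not swapped, so a dye effect of a gene is part of each of these ratios.

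**Figure D3:**
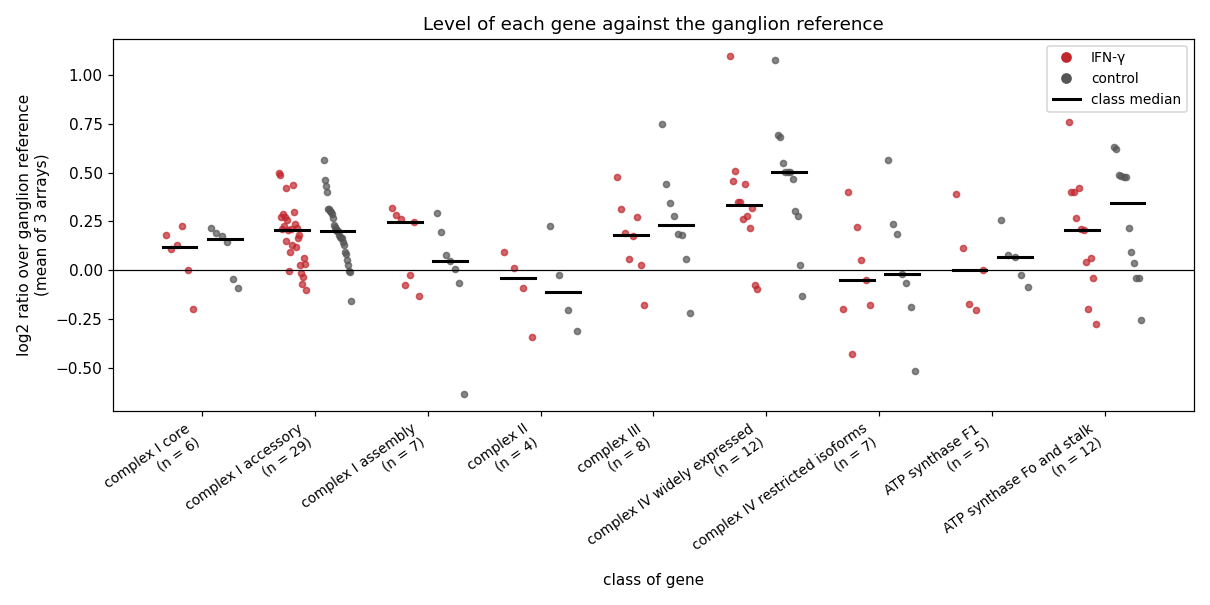
Mean log2 ratio over the ganglion reference of each gene in interferon-gamma (red) and control (grey) neurons, 3 arrays each, by class, with class medians as black lines. Control medians run from 0.50 for the widely expressed genes of complex IV to -0.11 for complex II.

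The gene with the highest ratio was Cox6a1, the widely expressed form of a subunit that regulates cytochrome c oxidase. It was at 1.09, 1.11 and 1.10 on the interferon-gamma arrays, against 1.02, 1.14 and 1.07 on the control arrays, which overlapped. This is 2.14-fold and 2.11-fold over the ganglion, with SDs of only 0.011 and 0.065 on the log2 scale. Next in the order of control means came Uqcrh, at 0.48 ± 0.16 in interferon-gamma and 0.75 ± 0.061 in control neurons, and Ndufa4, at 0.45 ± 0.22 and 0.69 ± 0.18 (SD, n = 3 each). Cox7a2 followed at 0.51 ± 0.21 and 0.68 ± 0.047, Atp5g3 at 0.76 ± 0.17 and 0.63 ± 0.25, and Atp5md at 0.40 ± 0.29 and 0.62 ± 0.24. In control neurons Cox6a1 stood above Uqcrh by more than their SDs between arrays, and the later neighbours in this order did not differ beyond theirs. These SDs do not hold the spread between features. The 2 features of Uqcrh had control means of 0.56 and 0.94, and Cox6a1 was measured by 1 feature. At the other end lay Ndufaf7, at -0.13 ± 0.23 in interferon-gamma and -0.64 ± 0.15 in control neurons, and the muscle isoform Cox6a2, at -0.18 ± 0.29 and -0.52 ± 0.33. Sdhc was at -0.34 ± 0.12 and -0.31 ± 0.15. Atp5g2 was at -0.28 ± 0.10 and -0.26 ± 0.011, Uqcrc1 at -0.18 ± 0.12 and -0.22 ± 0.16, and Sdhb at -0.090 ± 0.23 and -0.20 ± 0.033. These genes were picked by their control means, so treated means nearer the middle can come from the pick alone. The same control values enter both the low level of Ndufaf7 and its large difference.

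**Figure D4:**
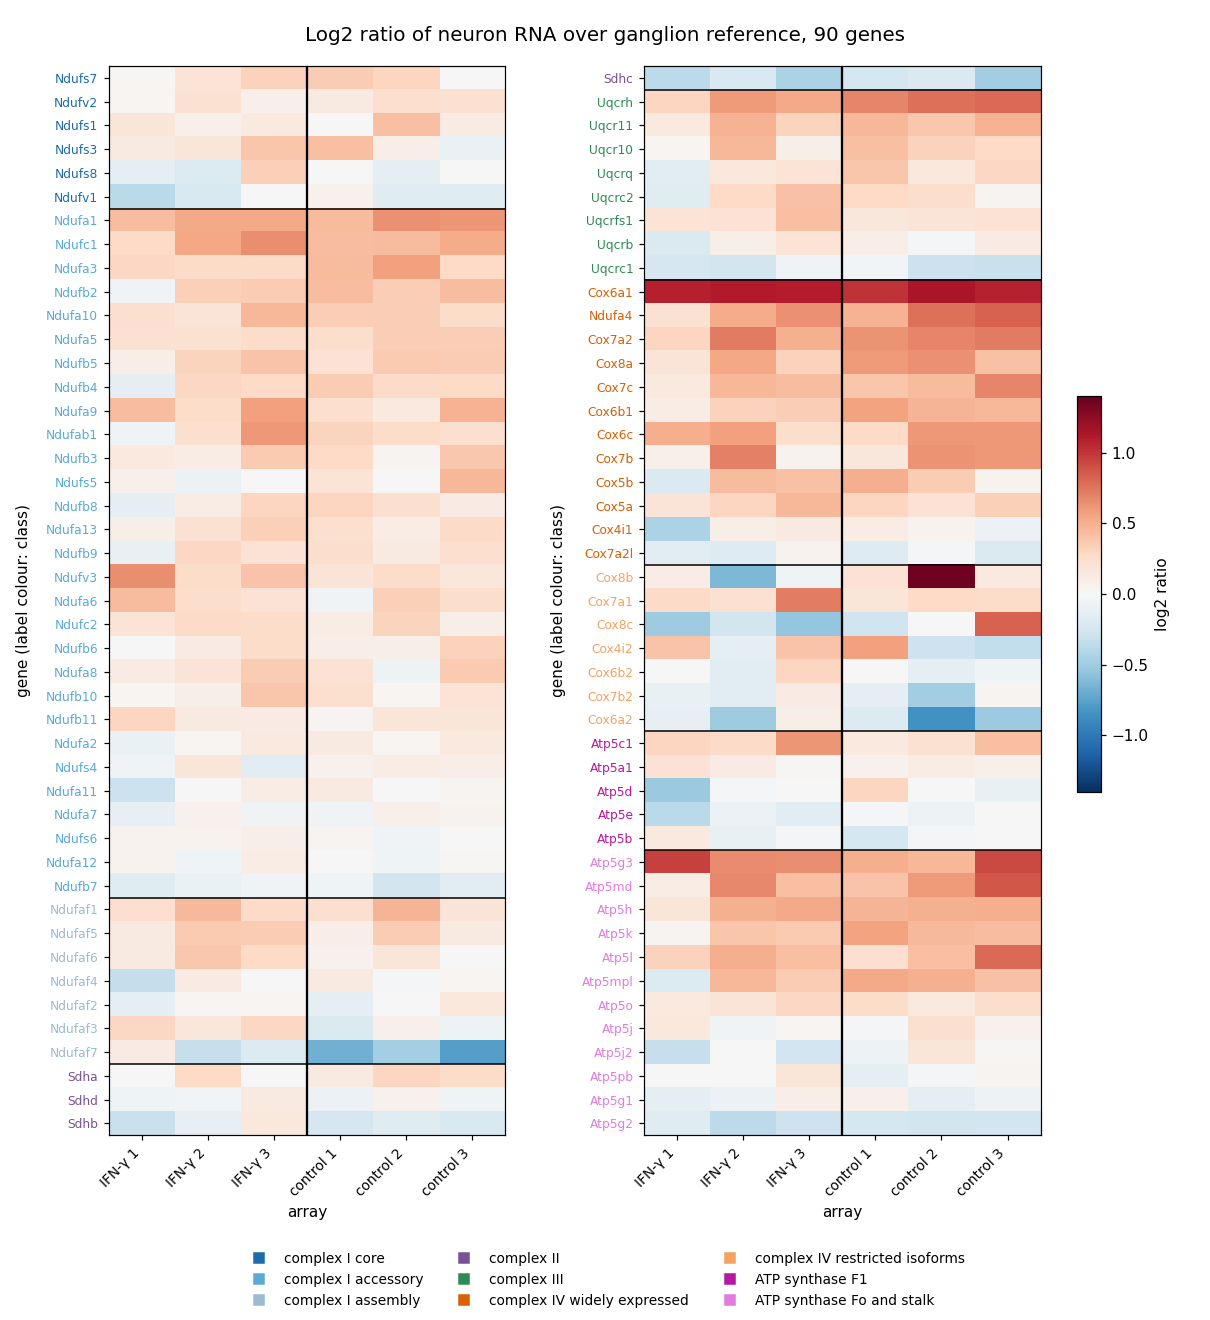
Log2 ratio over the ganglion reference of the 90 genes (rows, grouped by class and ordered by control mean) on 3 interferon-gamma and 3 control arrays (columns), red above and blue below 0. Cox6a1 is above 1 on every array, and Ndufaf7 is below 0 on all 3 control arrays and at 0.12 on interferon-gamma array 1.

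Several subunits of complex IV exist as paralogues that replace each other between tissues, and subunit c of the Fo ring is made from 3 genes with the same mature protein. The subunit 6a forms lay farthest apart, with Cox6a1 at the values above and Cox6a2 at -0.12, -0.50 and 0.083 on the interferon-gamma arrays, against -0.19, -0.85 and -0.51 on the control arrays. Subunit 6b had Cox6b1 above the ganglion and the testis form Cox6b2 close to 0, at 0.008, -0.15 and 0.30, against 0.010, -0.14 and -0.061. In subunit 7a, the widely expressed Cox7a2 had 0.30, 0.72 and 0.50, against 0.63, 0.69 and 0.73, and the muscle form Cox7a1 had 0.27, 0.22 and 0.72, against 0.17, 0.28 and 0.25. The related Cox7a2l averaged below 0 in both groups, at -0.099 ± 0.13 and -0.13 ± 0.10 (SD). Of the 7b forms, Cox7b averaged 0.28 ± 0.37 and 0.46 ± 0.26, and Cox7b2 averaged -0.051 ± 0.14 and -0.19 ± 0.27.

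The 7 isoforms of restricted tissues had a median difference of 0.14, with 5 above 0 and 2 below, and a range from -0.77 for Cox8b to 0.34 for Cox6a2. The median was 0.155 without interferon-gamma array 1. Subunit 4 is the site where ATP inhibits the oxidase. Its main form, Cox4i1, was at -0.44, 0.084 and 0.12 on the interferon-gamma arrays, against 0.10, 0.049 and -0.078 on the control arrays. Cox4i2, the form of lung and of low oxygen, was at 0.40, -0.13 and 0.40, against 0.58, -0.29 and -0.35. The widely expressed Cox8a averaged 0.35 ± 0.18 and 0.55 ± 0.12 (SD, n = 3 each). The muscle form Cox8b was at 0.10, -0.63 and -0.064, against 0.20, 1.37 and 0.14, and the testis form Cox8c at -0.50, -0.25 and -0.54, against -0.28, 0.009 and 0.82. Cox8b and Cox8c had the largest SDs of the members among the control arrays, 0.69 and 0.57. For Cox8c the difference was -0.61, and -0.29 without control array 3. For Cox8b a single control array enlarged the value, and without control array 2 the difference was -0.37 in place of -0.77 (limma, adjusted p = 0.782 and 0.671). Signal over background was not analysed here, so ratios of isoforms that may be dim carry little weight. Among 6 markers of muscle the median was 0.14, -0.57 and -0.42 on the interferon-gamma arrays, against -0.34, -0.21 and -0.042. Acta1 was the lowest of these, at -1.13. Myh7, a myosin of heart and slow muscle, rose by 2.49 ± 0.21 (SE; limma, adjusted p = 0.00293). Its relation to the muscle isoforms was not tested. For subunit c, Atp5g3 was above the ganglion in both groups, Atp5g1 was near it at -0.041 ± 0.12 and -0.041 ± 0.10, and Atp5g2 was below it. Features of paralogues can bind RNA of one another, which may blur such contrasts.

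**Figure D5:**
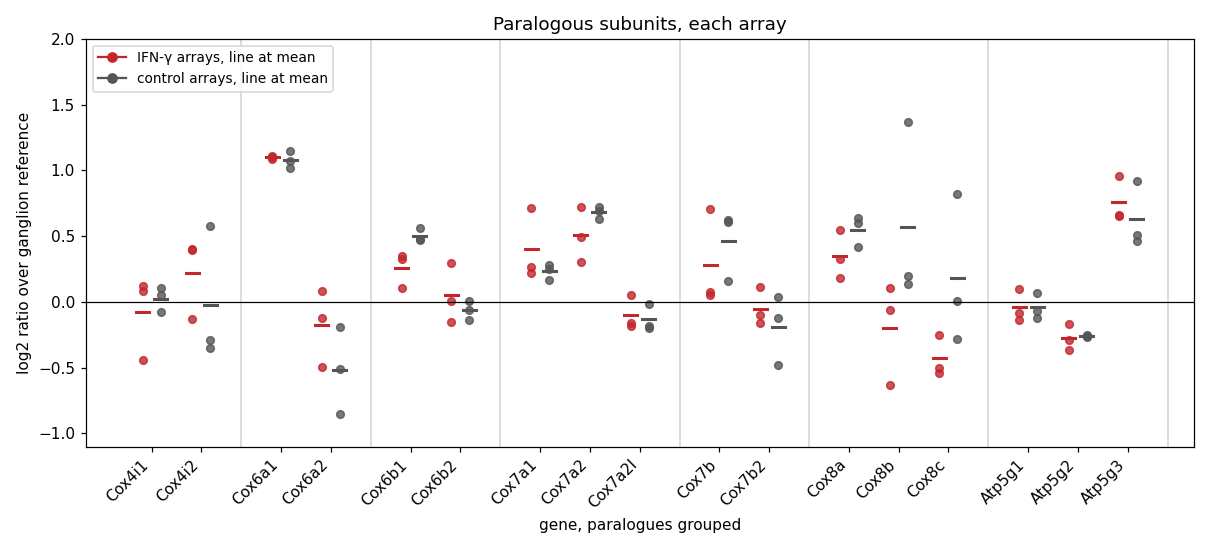
Log2 ratio over the ganglion reference of paralogous subunits on each array (dots), with means as lines, interferon-gamma in red left of control in grey. Cox6a1 lies near 1.1 in both groups and Cox6a2 at -0.18 and -0.52, while Cox8b and Cox8c spread widest among the control arrays.

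The remaining genes of the pathway gave no calls either. Of the mitochondrially encoded subunits, ND4L and COX2 were on the array. ND4L, a membrane subunit of complex I, was at 0.32, 1.75 and 0.35 on the interferon-gamma arrays, against 0.89, 2.16 and 1.38 on the control arrays. COX2, which takes electrons from cytochrome c, was at 0.38, 1.36 and 0.37, against 0.86, 1.73 and 1.29. Both lay above the median of the nuclear members on every array. Interferon-gamma arrays 1 and 3 gave the lowest values of both and array 2 lay among the control arrays, so that the groups overlapped. The differences were -0.67 ± 0.48 and -0.59 ± 0.34 (SE; limma, adjusted p = 0.779 and 0.717). Cytochrome c itself (Cycs) differed by 0.049 ± 0.17, Cyc1, cytochrome c1 of complex III, which the symbol rule does not take, by 0.087 ± 0.15, and Cyct, the testis form of cytochrome c, by 0.14 ± 0.23.

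No gene was called among 17 assembly factors of cytochrome oxidase, 15 of the citric acid cycle, 15 regulators of mitochondrial biogenesis, 11 carriers and porins, 14 of glycolysis or 77 cytosolic ribosomal proteins. Their median differences were 0.012, 0.017, -0.031, 0.066, -0.23 and 0.021. Glycolysis had 11 of 14 genes below 0, with Gapdh the lowest at -0.65 ± 0.18 (SE; limma, adjusted p = 0.37), Aldoc the highest at 0.13 ± 0.28, and its control arrays differed, with medians of 0.51, 0.20 and 0.038. Cox18, which inserts COX2 into the membrane, had the highest value of the assembly factors, 0.45 ± 0.16 (adjusted p = 0.509), and Cox20 the lowest, -0.23 ± 0.13. In the citric acid cycle the extremes were Suclg2 at 0.40 ± 0.29 and Pdha1 at -0.19 ± 0.11, and among carriers Slc25a5, an ADP/ATP carrier, at 0.42 ± 0.15 and Slc25a1 at -0.22 ± 0.21. Ppargc1b, a coactivator of mitochondrial genes, was the lowest regulator, at -0.24, 0.50 and 0.43 on the interferon-gamma arrays, against 1.53, 0.88 and 0.76 on the control arrays. Its groups did not overlap, and the difference was -0.83 ± 0.28 (SE; limma, adjusted p = 0.509). Tfb2m, a factor of mitochondrial transcription, was the highest, at 0.14 ± 0.15. Ppargc1a, a relative of Ppargc1b, differed by -0.11 ± 0.16, Nrf1 by -0.096 ± 0.18, Gabpa by 0.10 ± 0.20 and Tfam, which packs and transcribes mitochondrial DNA, by 0.027 ± 0.14. The ribosomal proteins ran from -0.21 for Rpl41 to 0.58 for Rpl4.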

How the data were processed

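Total RNA was labelled with a low-input 2-colour kit, 500 ng per sample, per the labels' protocols. Images were read with Agilent Feature Extraction, per the submitters' processing notes, with no version and no background or normalization method given in the sources used here. The authors deposited 1 log ratio per feature, taken here as log2, for 45220 features, centred within arrays (array medians 0 to 0.005). The log base was assumed from the range of these ratios, -9.00 to 10.73, and the direction, neuron over ganglion, was taken from the dyes in the labels. The opposite direction would make known interferon-gamma targets fall. From 309 to 715 features per array held exactly 0, none of them a feature of the 90 genes, and no value was missing.

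The annotation gave 1 gene for 33653 features, and symbols were updated through RefSeq for GRCm38.p6 for 33517. Features of a gene were averaged per array. The difference between groups was fitted by lmFit and eBayes (limma 3.58.1, R 4.3.3; two-sided), with p-values adjusted by Benjamini-Hochberg over 19087 genes. The code was tested on simulated data. Members, gene lists and classes were chosen with earlier results of these data known. Named members are, by rule, those called, the extremes of each class, the 6 highest and 6 lowest control means, paralogues and core subunits, with the extremes of each other list and its called genes. The other genes named were chosen after their values were seen, namely Ndufaf3, Ndufa13, Ndufs6, Atp5e, Atp5k, Ppargc1a, Nrf1, Gabpa, Tfam, Tap1 and Cyc1. The ribosomal list was taken by symbol, and motifs were chosen after the comparison. Alternatives were 2 between-array scalings, 2 ways of joining features, zeros as missing, a filter on low SD, array weights, a variance trend, a replicate block, each array left out, and other member sets. A filter on dim features was not possible.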

Additional observations from a re-analysis of the deposited data

How the results depend on the processing

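No member was called in either direction under any of the 15 other settings of the fit. The 44 named members are part of the 90, so it follows that none of their 646 values under these settings crossed the threshold. Among them, 35 uncalled values near 0 had the other sign. For Ndufaf7 the difference was 0.38 to 0.60 and the adjusted p 0.193 to 0.866 (limma). The count of all genes higher with interferon-gamma was 112 to 480 with 1 array left out, against 213 with all arrays, and the count of lower genes 1 to 28, against 4. The highest counts, 480 and 28, came without interferon-gamma array 2, and the count of higher genes was 130 without interferon-gamma array 1, 112 without array 3, and 135 and 128 without control arrays 1 and 2. Lower genes numbered 1 without interferon-gamma array 3 or control array 1 and 7 without control array 3. They numbered 1 with quantile normalization, 7 without the genes of low SD and 12 with array weights. The members' median difference was -0.069 to 0.020 with 1 array left out. It was -0.10 without the genes of low SD, a filter that keeps 46 of the 90 members. The members' median level in control neurons, 0.19, was 0.177 to 0.197 with 1 array left out. It was 0.184 with scaled arrays, 0.184 with the median over features, 0.18 with 1 feature per gene, 0.227 without the genes of low SD and 0.204 over the 75 constant subunits. The cause of these shifts was not tested.

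With the replicate number as a block, 164 genes were higher, 2 lower and 0 of them members. Deviations of equally numbered arrays correlated at 0.064, 0.31 and -0.031, and only interferon-gamma array 2 matched its own number best. With 3 arrays per group, these correlations cannot decide whether equally numbered samples were paired. Signal over background was not analysed here, and 3 arrays per group limit every value.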
